A study of Mus musculus with 8 samples.

Results

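A set of 10 genes of the endoplasmic reticulum was followed in mouse small intestinal organoids after X-irradiation. The genes were chosen by symbol, as listed chaperones and genes of the unfolded protein response, and all 10 were found among the 55416 gene IDs of both deposited tables. All 10 also passed the filter on low counts, which left 14063 genes for testing. Organoids are cultures of intestinal epithelium grown in a gel; here they came from epithelial cells of C57BL/6 mice aged 4 to 8 weeks and were kept in IntestiCult medium. All 4 groups, controls included, carried Rosa26-rtTA Tg/Tg together with Col1A1-TetO-OSKM Tg/Tg, which makes an inducible transgene for 4 reprogramming factors, and nothing in the labels says that it was switched on in these samples. The 4 groups were untreated organoids at day 4, untreated organoids at day 7, organoids given 6 Gy of X-rays at day 4, and organoids given 6 Gy at day 7, with 2 libraries each. The starting point of the day count is not stated, nor is it stated whether the 2 libraries of a group came from separate cultures or animals, so p-values measure only the spread between these libraries, which may be technical.

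Proteins bound for secretion or for membranes fold in the endoplasmic reticulum (ER), helped by chaperones and by enzymes that form disulfide bonds. When unfolded proteins build up there, sensors in the ER membrane start the unfolded protein response (UPR). IRE1 enzymes splice the mRNA of Xbp1, ATF6 is cut into an active transcription factor, and PERK slows translation and favours ATF4. XBP1 and ATF6 raise transcription of chaperones and of the machinery that sends misfolded proteins to the proteasome. The intestine relies on this response mostly in its secretory cells, the mucus-making goblet cells and the antimicrobial Paneth cells.

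The members, with the gene IDs of the deposited tables, were the sensor Ern2 (ENSMUSG00000030866), the transcription factor Xbp1 (ENSMUSG00000020484), the chaperones Hspa5 (ENSMUSG00000026864), Hsp90b1 (ENSMUSG00000020048) and Hyou1 (ENSMUSG00000032115), the chaperone cofactors Dnajb9 (ENSMUSG00000014905), Sdf2l1 (ENSMUSG00000022769) and Creld2 (ENSMUSG00000023272), the disulfide isomerase Pdia4 (ENSMUSG00000025823) and the degradation factor Herpud1 (ENSMUSG00000031770). Their lowest expected count in a library was 27, for Ern2. The deposited counts were whole numbers, within 0.001, for 8 of the 10. Those of Hsp90b1 and Dnajb9 were fractional in part, as estimates are where a read fits more than 1 gene, and are uncertain to that extent. Since counts were given per gene, they do not show how much of the Xbp1 mRNA was spliced.

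Many UPR genes carry the ER stress response element (ERSE), the letters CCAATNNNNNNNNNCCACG, which NF-Y and ATF6 bind, and some carry the shorter ERSE-II, ATTGGNCCACG. Promoters from 250 bases before to 50 after the start were found in RefSeq (GRCm38.p6) for 8 of the members, not for Hyou1 or Ern2. Exact ERSE letters, on either strand, stood in 3 of these 8 promoters and in 0.119% of 32851 promoters of the same length. ERSE-II stood in 1 of the 8 and in 0.0365% of all. The stretches below are shown because they hold every ERSE and ERSE-II match among the members, and Dnajb9 is added as a UPR gene with the CCACG letters alone. Each is printed 5′ to 3′ along the strand of its gene, with 20 bases on either side and the match in capitals. Hspa5 lies on the + strand (stretch chr2:34772005-34772063), with its match 65 to 47 bases before the start. Hsp90b1 lies on the − strand and holds a match 212 to 194 bases before the start (chr10:86705618-86705676) and one on the opposite strand 107 to 89 bases before it (chr10:86705513-86705571). Creld2 lies on the + strand (chr15:88819500-88819558), with its match on the opposite strand, 126 to 108 bases before the start. Herpud1 lies on the + strand (chr8:94386357-94386407), with ERSE-II 52 to 42 bases before the start, and Dnajb9 on the − strand (chr12:44210152-44210196), with CCACG 108 to 104 bases before it. A further CCACG of Dnajb9, 15 to 11 bases before the start, is not shown. Sdf2l1 and Pdia4 also held CCACG without either element and are not shown.
Hspa5: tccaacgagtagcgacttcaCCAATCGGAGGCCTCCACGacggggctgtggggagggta
Hsp90b1, far match: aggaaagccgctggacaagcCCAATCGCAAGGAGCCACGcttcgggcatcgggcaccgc
Hsp90b1, near match: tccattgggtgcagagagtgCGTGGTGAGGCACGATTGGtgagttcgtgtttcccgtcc
Creld2: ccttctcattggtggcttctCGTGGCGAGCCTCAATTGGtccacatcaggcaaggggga
Herpud1: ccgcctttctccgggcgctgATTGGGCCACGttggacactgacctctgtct
Dnajb9: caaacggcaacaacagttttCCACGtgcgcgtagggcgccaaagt
The CCACG letters, which also end both elements, stood in 7 of the 8 promoters (not in that of Xbp1) and in 32.8% of all. The XBP1-bound element TGACGTGG, whose opposite strand holds CCACG, stood in 0 of the 8 and in 0.676% of all. A match is a description of the letters only.

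Across the series the total of expected counts ran from 7541760 to 16054300 per library. Replicates lay further apart at day 4, with a biological coefficient of variation of 0.136 in control and 0.173 in irradiated organoids, than at day 7, with 0.0471 and 0.0409. Mitochondrial transcripts took 12.9% to 27.6% of the counts, the most in irradiated day 4 replicate 2. The labelled epithelial origin was checked with Epcam (412 to 865 TPM), Cdh1 (187 to 279 TPM) and Vil1 (175 to 410.5 TPM), which were high in all 8 libraries. TPM are transcript levels scaled for gene length and for the library. Summed markers of immune cells reached at most 15.0 CPM, of mesenchyme 22.8 CPM and of endothelium 5.77 CPM, and Adgre1, Thy1, Cdh5, Cldn5 and Kdr were at 0 in every library. CPM are counts relative to library size, here adjusted between libraries with the TMM method of edgeR.

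On the length-scaled TPM level the members spanned a wide range, 198-fold between the highest and the lowest in control organoids at day 4. Hsp90b1, the ER form of the HSP90 chaperone, was the highest in every group, at 720 ± 43 TPM (SD, n = 2) in controls at day 4. Hspa5, the HSP70 chaperone BiP, followed at 327 ± 9.36 TPM (n = 2), and together the pair held 75.0% of the summed TPM of the members in that group. Then came Xbp1 (101 ± 17.5 TPM), Pdia4 (82.6 ± 5.55), Herpud1 (64.1 ± 13.9), Hyou1 (53.3 ± 5.10), Sdf2l1 (19.5 ± 2.72), Creld2 (13.6 ± 0.177), Dnajb9 (11.1 ± 1.57) and Ern2 (3.64 ± 0.170). In that group the libraries of neighbours in this order overlapped only between Herpud1 and Hyou1.

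The order moved with Herpud1. It took the fifth place in both control groups and the third place in both irradiated groups, at 153 ± 9.92 TPM (n = 2) at day 7 after irradiation, where its libraries lay above those of Pdia4 (94.6 ± 1.97) and Xbp1 (94.5 ± 1.20). In irradiated organoids at day 4 its libraries (96.8 and 62.6 TPM) overlapped those of Xbp1. In controls at day 7 its libraries (89.5 and 86.7 TPM) overlapped those of Pdia4 (92.6 and 87.7 TPM). Dnajb9 took the ninth place in 3 groups and the seventh place in irradiated organoids at day 4, at 19.3 ± 2.30 TPM, where it overlapped Sdf2l1 (18.7 ± 0.417). Of all deposited counts the 10 members took 0.214% to 0.220% in the 4 control libraries. After irradiation they took 0.160% and 0.164% in the libraries of day 4, and 0.209% and 0.205% in those of day 7. These shares are not TMM-scaled. On the scaled CPM level the 10 summed to between 2079 and 2247 CPM in the control libraries. The sums were 1669 and 2025 CPM in irradiated replicates 1 and 2 of day 4, and 1908 and 1864 CPM in those of day 7. Replicate 2 of day 4 thus lay close to the controls once scaled.

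**Figure D1:**
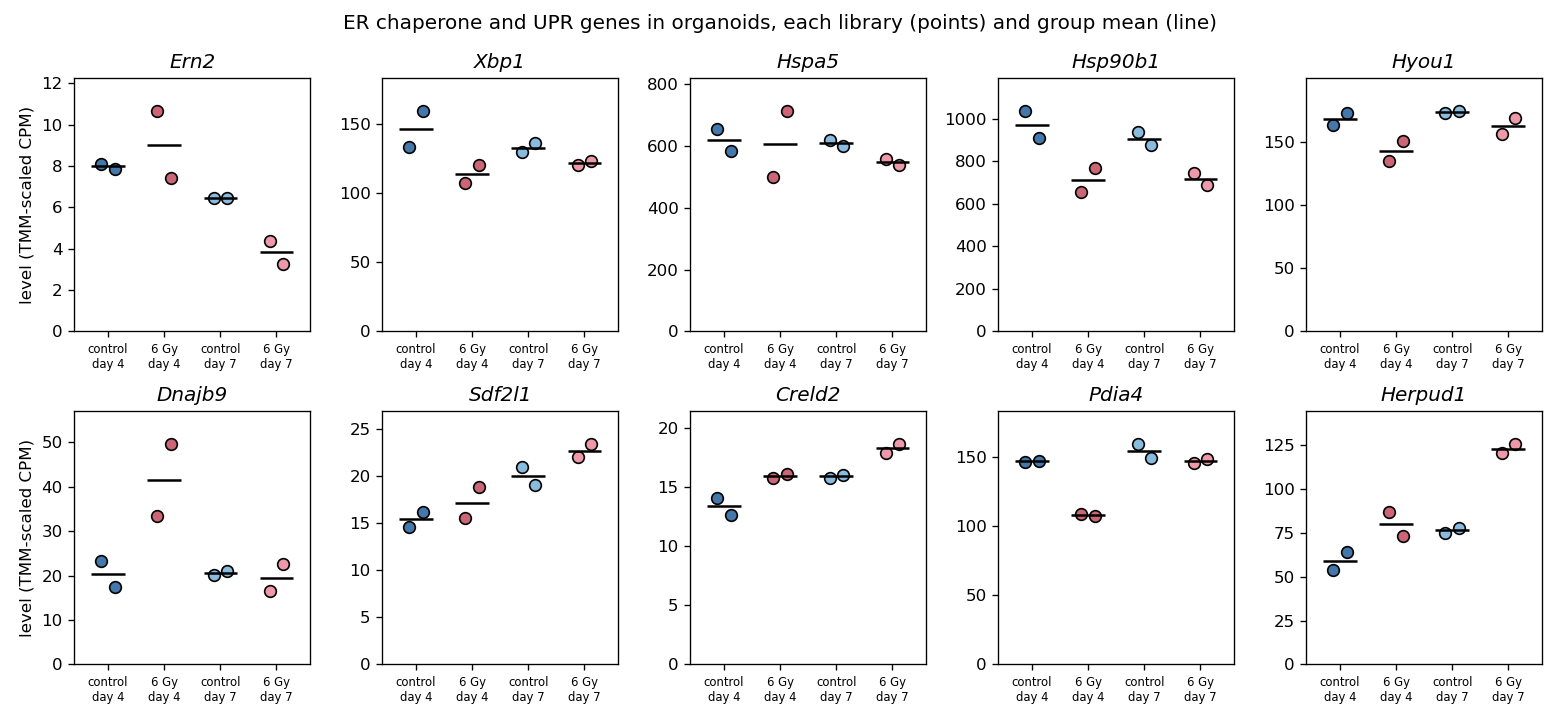
Level of each of the 10 genes (TMM-scaled CPM, each panel from 0) in the 8 libraries, by group; points are libraries and lines group means. Dnajb9 was highest in both irradiated libraries at day 4 (33.3 and 49.5 CPM) and Herpud1 in both irradiated libraries at day 7 (121 and 125 CPM).

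Irradiated organoids were first compared with control organoids at day 4, to find which of these genes differed at the earlier time. Dnajb9 and Herpud1 rose, and Xbp1, Hsp90b1 and Pdia4 fell. The other 5 genes did not pass the test, among them Hspa5, the main ER chaperone. So 5 of 10 were called by edgeR's quasi-likelihood test (Benjamini-Hochberg adjusted p under 0.05), where 36.5% of all tested genes were; 2 were higher (20.0% of all genes) and 3 lower (16.5%). In a fit of only the day 4 groups 2 of the 10 were called, beside 22.5% of all genes. In the fit with all groups the median log2 fold change of the 10 was 0.06, beside 0.00 for all tested genes. The values of the 10 ran from -0.45 to 1.04. Standard errors (SE) below come from that fit, as the log2 fold change divided by the root of the F statistic.

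Dnajb9 encodes a J-domain cofactor that hands misfolded proteins to Hspa5 and is a target of XBP1. Its level was 23.3 and 17.4 CPM in control organoids and 33.3 and 49.5 CPM in irradiated organoids at day 4. Both irradiated libraries lay above both controls, and replicate 2, with the high mitochondrial share, was the higher. The expected counts of Dnajb9 were fractional in these irradiated libraries alone (309.86 and 454.64) and whole in all others. Its rise is uncertain to that extent. The log2 fold change was 1.04 (SE 0.22, adjusted p = 0.0065), a 2.05-fold rise. Without irradiated day 4 replicate 2 it was 0.72 (adjusted p = 0.0192), and without control day 4 replicate 2 it was 0.83 and no longer called (adjusted p = 0.0522).

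Herpud1 encodes an ER membrane protein of the complex that moves misfolded proteins out for degradation. Its level was 54.1 and 64.2 CPM in control organoids and 86.9 and 73.2 CPM in irradiated organoids at day 4. The groups did not overlap, and irradiated replicate 1 was the highest of the 4. This gave a log2 fold change of 0.43 (SE 0.11, adjusted p = 0.0111). The call was lost without control day 4 replicate 1 (0.32, adjusted p = 0.0608), in a fit of the day 4 groups alone (adjusted p = 0.0645) and on the TPM scale, where the libraries overlapped (54.2 and 73.9 against 96.8 and 62.6 TPM).

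Pdia4 encodes ERp72, a disulfide isomerase of the thioredoxin family. It stood at 146 and 147 CPM in control organoids and at 109 and 107 CPM in irradiated organoids at day 4. Replicates differed by far less than the groups. Pdia4 fell by 0.44 on the log2 scale (SE 0.07, adjusted p = 0.00128), and the gene was called lower in all 19 alternative settings.

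Hsp90b1 was at 1035 and 910.1 CPM in control organoids and at 656 and 769 CPM in irradiated organoids at day 4. Both irradiated libraries lay below both controls. It fell by 0.45 on the log2 scale (SE 0.11, adjusted p = 0.00813). In a fit of the day 4 groups alone the value was -0.46 with an adjusted p of 0.0701.

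Xbp1 was at 133 and 159 CPM in control organoids and at 108 and 120.4 CPM in irradiated organoids at day 4. The groups did not overlap, but the controls lay further apart than the nearest control and irradiated libraries did. The log2 fold change was -0.36 (SE 0.10, adjusted p = 0.0164). This call rested on single libraries: without control day 4 replicate 2 the value was -0.23 (adjusted p = 0.111), and without irradiated day 4 replicate 1 it was -0.28 (adjusted p = 0.0527). In a fit of the day 4 groups alone the adjusted p was 0.0789.

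Hspa5 was not called. Its level was 655 and 586 CPM in control organoids and 500.0 and 713 CPM in irradiated organoids, so that the irradiated libraries lay on either side of both controls. The log2 fold change was -0.03 (SE 0.14, 95% interval -0.36 to 0.29, adjusted p = 0.882). With irradiated replicate 2 left out it was -0.31 and called lower (adjusted p = 0.0144), and with irradiated replicate 1 left out it was 0.20 (adjusted p = 0.078). The 2 irradiated libraries thus gave opposite directions.

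Hyou1, a large HSP70-like exchange factor for Hspa5, was at 163 and 172 CPM in control organoids and at 135 and 151 CPM in irradiated organoids. The groups did not overlap, with a log2 fold change of -0.23 (SE 0.08) that just missed the threshold (adjusted p = 0.0522). Creld2, an ER protein with disulfide isomerase activity, was at 14.1 and 12.7 CPM in controls and at 15.8 and 16.1 CPM after irradiation. Its difference of 0.25 (SE 0.13) was not called (adjusted p = 0.164). Sdf2l1, a cofactor of Hspa5 in folding and retention, had overlapping libraries (14.6 and 16.2 against 15.5 and 18.8 CPM; log2 fold change 0.15, adjusted p = 0.443). Ern2, the IRE1 form found in mucus-secreting epithelium, also overlapped, at 8.09 and 7.86 CPM in controls and 10.6 and 7.40 CPM after irradiation (log2 fold change 0.18, adjusted p = 0.573).

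**Figure D2:**
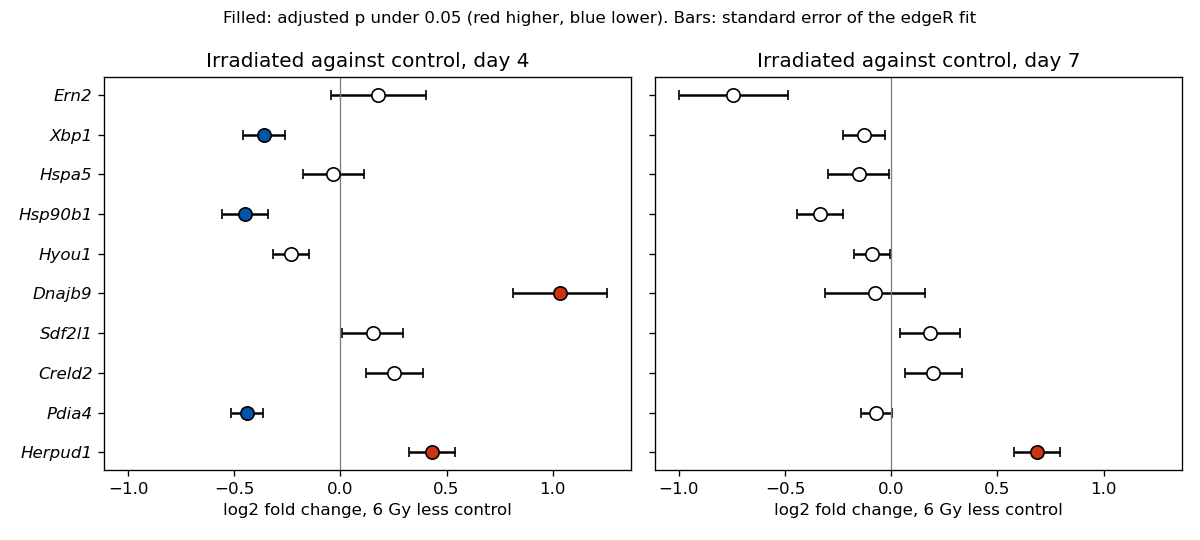
Log2 fold change of irradiated against control organoids at day 4 and day 7 for the 10 genes; bars are standard errors of the edgeR fit, and filled points passed an adjusted p of 0.05 (red higher, blue lower). At day 4 the called values run from -0.45 (Hsp90b1) to 1.04 (Dnajb9); at day 7 Herpud1 (0.69) is the only filled point.

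At day 7 the same comparison called fewer members in the fit of all groups, which uses 1 spread per gene for both days. Replicates lay closer together at day 7, and with only the groups compared day 7 gave more calls than day 4. Such fits called 5 members and 33.8% of all genes at day 7, and 2 members and 22.5% at day 4. In the fit of all groups Herpud1 was the only member called at day 7, higher after irradiation. There 8.65% of all tested genes were called, 4.70% higher and 3.95% lower. That share of all genes fell to between 0.697% and 1.14% when any of the 4 libraries of day 7 was left out. The median log2 fold change of the 10 was -0.08, beside 0.00 for all genes.

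Herpud1 was at 75.1 and 77.7 CPM in control organoids and at 121 and 125 CPM in irradiated organoids at day 7. The irradiated libraries were the 2 highest of the 8, and the spread within each group was small beside the gap. The log2 fold change was 0.69 (SE 0.11, adjusted p = 0.00587), a 1.61-fold rise. With 1 library left out the value stayed between 0.65 and 0.71, but the adjusted p was 0.0887 without control day 7 replicate 1, 0.0692 without control day 7 replicate 2 and 0.068 without irradiated day 7 replicate 2. On the log2(TPM + 1) scale it was 0.79 and not called (adjusted p = 0.0916).

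Dnajb9 had 20.1 and 21.0 CPM in the controls of day 7, and 16.6 and 22.5 CPM in the irradiated libraries. The irradiated libraries lay on either side of the controls (log2 fold change -0.08, 95% interval -0.61 to 0.46, adjusted p = 0.88). Pdia4 was at 159 and 149 CPM in controls and at 145 and 149 CPM after irradiation, with a log2 fold change of -0.07 (SE 0.07, adjusted p = 0.60).

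Ern2 gave the lowest value of the 10 at day 7. It was at 6.44 and 6.44 CPM in controls and at 4.39 and 3.25 CPM after irradiation. Both irradiated libraries lay below the controls, at low counts. The log2 fold change of -0.74 (SE 0.26) was not called (adjusted p = 0.10). Hsp90b1 was again lower in both irradiated libraries (747 and 691 CPM) than in both controls (936 and 878 CPM), with a log2 fold change of -0.34 (SE 0.11) that was not called (adjusted p = 0.0793).

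The remaining members were not called at day 7 either. Hspa5 was at 619 and 601 CPM in controls and 558 and 539 CPM after irradiation (log2 fold change -0.15, adjusted p = 0.557). Xbp1 was at 129 and 136 CPM in controls and 120.3 and 123 CPM after irradiation (-0.13, adjusted p = 0.464). Hyou1 had 172 and 174 CPM against 156 and 169 CPM (-0.09, adjusted p = 0.545). Sdf2l1 and Creld2 pointed up in both irradiated libraries. Sdf2l1 went from 20.9 and 19.0 CPM to 22.0 and 23.3 CPM (0.18, adjusted p = 0.457) and Creld2 from 15.8 and 16.1 CPM to 18.0 and 18.6 CPM (0.20, adjusted p = 0.39). A fit of the day 7 groups alone, whose replicates lay close together, called 33.8% of all genes and 5 of the members: Herpud1 higher, and Ern2 (adjusted p = 0.0136), Xbp1 (0.0461), Hspa5 (0.0028) and Hsp90b1 (4.36e-07) lower.

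Whether the effect of irradiation differed between the days was tested with an interaction term. No member was called by edgeR, where 10.1% of all genes were (4.60% higher at day 7 than at day 4, 5.51% lower). At an unadjusted p under 0.05 there were 3, and DESeq2 called 1 of the 10. The 3 were Dnajb9, whose effect was 1.11 lower at day 7 on the log2 scale (-1.11, SE 0.32, adjusted p = 0.0626), Pdia4 (0.37, SE 0.10, adjusted p = 0.0503) and Ern2 (-0.92, SE 0.34, adjusted p = 0.112). For Herpud1 the difference between days was 0.25 (95% interval -0.09 to 0.59, adjusted p = 0.315).

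Day 7 was then compared with day 4 within each treatment. These comparisons share their libraries with those above. In control organoids no member was called by edgeR, where 2.72% of all genes were (1.25% higher, 1.46% lower). At an unadjusted p under 0.05 there were 2, Herpud1 (0.37, SE 0.11, adjusted p = 0.109) and Sdf2l1 (0.37, SE 0.14, adjusted p = 0.20), both with higher libraries at day 7. DESeq2 called none of the 10 here.

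In irradiated organoids 4 of the 10 were called, where 33.0% of all genes were (14.7% higher, 18.3% lower). Herpud1 rose by 0.62 (SE 0.11, adjusted p = 0.00221) and Pdia4 by 0.44 (SE 0.07, adjusted p = 0.00188) from day 4 to day 7. Dnajb9 fell by 1.09 on the log2 scale (SE 0.23, adjusted p = 0.00765), from above every control library to either side of the controls of day 7. Ern2 fell by 1.23 (SE 0.25, adjusted p = 0.00481). Of goblet cell markers 8 of 15 fell and 1 rose (median -0.84). Muc2 was among the falls (-2.29, from 529 ± 178 to 108 ± 5.55 CPM, n = 2). Other markers fell here too, in 18 of 18 for enterocytes, 12 of 14 for enteroendocrine cells and 10 of 15 for Paneth cells. Crypt base stem cell markers rose in 10 of 12. In controls, where 2.72% of all genes were called, 7 of 14 enteroendocrine and 5 of 15 goblet markers fell, and 1 goblet marker rose. Stem cell markers rose there in 7 of 12. Of enterocyte markers 0 of 18 fell and 1 rose in controls, and of Paneth markers 1 of 15 fell and 2 rose. In controls Muc2 went from 530 CPM at day 4 to 177 CPM at day 7, where Ern2 was not called. A link of Ern2 to any cell type was not tested. The call of Dnajb9 was lost without irradiated day 7 replicate 1 (adjusted p = 0.0745) and that of Ern2 without irradiated day 7 replicate 2 (adjusted p = 0.0583) and on the log2(TPM + 1) scale (-0.60, adjusted p = 0.109).

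The 10 genes did not move as one. Over the 8 libraries, which fall into 4 groups and are therefore few independent points, the Pearson r of log2 CPM between members had a median of -0.04 over 45 pairs, with 24 pairs below 0 and 10 over 0.5. The highest r was 0.87, between Creld2 and Herpud1, and the lowest -0.89, between Dnajb9 and Pdia4. Herpud1, Sdf2l1 and Creld2 all had their highest libraries among irradiated organoids at day 7, while Xbp1, Hyou1, Pdia4, Hsp90b1 and Hspa5 had their lowest library in irradiated organoids at day 4, where Hspa5 also had its highest. The 4 genes with an ERSE or ERSE-II match were spread over these patterns, with Herpud1 and Creld2 in the first and Hsp90b1 and Hspa5 in the second. For Hyou1, also in the second, no promoter was found to search. Among 2480 other genes, 8 were picked for the highest r of log2 CPM with the mean standardised profile of the members. They were Zfp319, Kansl1l, Tert, Proser3, Olfm4, Bcl11a, Jun and Pipox, with r from 0.83 to 0.90 over the 8 libraries. Being picked for r, they are no test of likeness. The mean profile stood for no common pattern of the members. Its lowest point was 1 library, irradiated day 4 replicate 1 (-0.65, beside 0.06 in replicate 2).

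**Figure D3:**
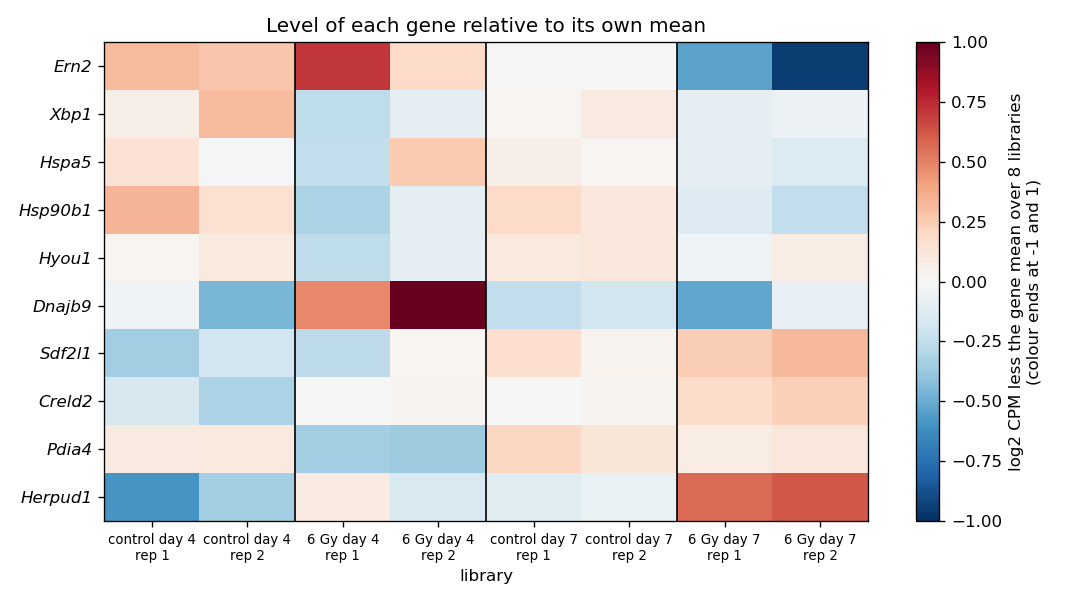
Log2 CPM of each gene less its own mean over the 8 libraries (colour, ending at -1 and 1), libraries in columns by group. Rows differ in pattern: Dnajb9 is high in the irradiated day 4 columns, and Herpud1, Sdf2l1 and Creld2 are high in the irradiated day 7 columns.

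The rest of the ER machinery was described with 10 fixed lists, leaving the members out. For reading these counts, 20.0% of all tested genes were called higher and 16.5% lower at day 4, and 4.70% and 3.95% at day 7. Beyond the genes that the naming rule gave, members of small counts are named below after their values were seen. Of the genes named from these lists as called at day 7, Agr2 was called whichever library of day 7 was left out, Creb3l3 and Golgb1 lost the call without either of 2 of the 4, and all the others lost it whichever of the 4 was left out. Genes of ER-associated degradation, the pathway of Herpud1, rose more often than they fell in irradiated organoids at day 4. Of 21 tested, 11 rose (52.4%, beside 20.0% of all genes), Edem2 fell (-0.33) and 9 did not pass, with a median log2 fold change of 0.25. Nploc4 (0.73, SE 0.09) and Ufd1 (0.57, SE 0.11), partners of the p97 ATPase that pulls proteins out of the ER membrane, and Fam8a1 (0.57, SE 0.13), a partner of the Hrd1 ligase, were among them. At day 7 Nploc4 was still called higher (0.40, SE 0.09), though not by DESeq2. The day 4 count rests on the scaling and on single libraries. It was 5 without control day 4 replicate 2, 7 without irradiated day 4 replicate 2, 3 in a fit of the day 4 groups alone, and 0 on the log2(TPM + 1) scale.

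On this length-scaled measure the median of all genes stood at -0.17 at day 4 and 0.12 at day 7, and the calls over all genes were 1104 higher and 1732 lower at day 4, against 2808 and 2322 in CPM. At day 7 they were 316 and 71, against 661 and 555. Relative to that median the day 4 value was 0.46 for Herpud1, 0.92 for Dnajb9, -0.47 for Pdia4, -0.42 for Hsp90b1 and -0.41 for Xbp1. Of these, all but Herpud1 were also called at day 4 on the TPM scale. The directions of Ern2 and Sdf2l1 at day 4, and of Xbp1, Hspa5, Hyou1, Dnajb9 and Pdia4 at day 7, turned on the TPM scale; none of them was called on either scale there.

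Genes that carry cargo from the ER to the Golgi also had more rises than falls at day 4, with 12 of 30 higher (40.0%) and 4 lower, the cargo receptor gene Lman1 (-0.44), Sar1a (-0.29), Tmed2 (-0.23) and Tmed10 (-0.20). The COPII coat genes Sec23a (1.06, SE 0.14), Sec24d (0.84, SE 0.12) and Sar1b (1.05, SE 0.11), the last known for chylomicron export in enterocytes, had the smallest p. On the TPM scale 3 were higher and 1 lower, and in a fit of the day 4 groups alone 5 were higher and 1 lower. At day 7, 2 rose, Surf4 (0.33) and Sec13 (0.36), and 2 fell, Golgb1 (-0.69), a Golgi tether, and Kdelr3 (-1.52), a receptor that returns ER proteins. On the TPM scale none of these was called.

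The entry side of the ER had more falls than rises at day 4, and most of its genes did not pass the test. Of 23 tested genes of translocation and signal peptide cleavage, none rose and 6 fell at day 4 (26.1%, beside 16.5% of all genes), including Ssr1 (-0.59, SE 0.08), a subunit of the translocon-associated complex, and the signal peptidase subunits Spcs3 (-0.57, SE 0.09) and Spcs2 (-0.52, SE 0.11). Of 19 N-glycosylation genes 5 fell and Alg5 rose (0.43). The falls were those of the oligosaccharyltransferase subunits Stt3b (-0.64, SE 0.08), Stt3a (-0.31), Krtcap2 (-0.62) and Rpn1 (-0.22) and of the glucosidase gene Mogs (-0.45). They numbered 2 without control day 4 replicate 2 and on the TPM scale. In a fit of the day 4 groups alone 2 N-glycosylation genes and 3 translocation genes fell. At day 7 Sec63 (-0.43) was the only gene of both lists called in the fit of all groups, and that call was lost with any 1 library of day 7 left out. Of the N-glycosylation genes 6 had an unadjusted p under 0.05 there, and DESeq2 called 1. The day 7 groups alone gave 2 higher and 7 lower of the translocation genes and 4 higher and 6 lower of the N-glycosylation genes.

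Among disulfide isomerases and oxidases, the family of Pdia4, 5 of 18 fell at day 4 (27.8%) and 2 rose. Pdia6 (-0.47, SE 0.07), an isomerase close to Pdia4 in function, the ER peroxidase gene Prdx4 (from 31.9 ± 0.714 to 15.9 ± 3.91 CPM, n = 2), and Agr2 (-0.77, SE 0.09), needed for mucin folding and also among the goblet cell markers, were among the falls, as were Txndc5 (-0.51) and Txndc16 (-0.60). P4hb (0.42), an isomerase gene, and Ero1lb (0.92), an oxidase gene, rose. On the log2(TPM + 1) scale 0 of the 18 rose and 5 fell, and in a fit of the day 4 groups alone 1 rose and 4 fell. Agr2 was lower at day 7 too (-0.88, SE 0.10). Tmx3 (-0.44) was called there as well, but not in 11 of 19 alternatives, DESeq2 and limma-voom among them. Of 16 other ER chaperones and cofactors 4 fell (25%) and 2 rose (12.5%) at day 4, beside 16.5% and 20.0% of all genes. Sil1 (-0.57), an exchange factor of Hspa5, Fkbp11 (-0.97), Fkbp2 (-0.43) and Creld1 (-0.76) were lower. Sdf2 (0.59), the relative of Sdf2l1, and the cofactor gene Dnajb11 (0.40) were higher. The count of falls was 1 without control day 4 replicate 2 and in DESeq2, and 2 without either control library of day 7 or with the day 4 groups alone. None of the 16 was called at day 7 in the edgeR fit of all groups or by DESeq2, and 4 had an unadjusted p under 0.05. The edgeR fit of the day 7 groups alone called 2 higher and 4 lower.

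Of the genes of the 3 UPR sensors, Eif2ak3, which encodes PERK, rose at day 4 (0.81, SE 0.18, adjusted p = 0.00611), whereas Ern1, the widely expressed IRE1 form (0.19, SE 0.15, adjusted p = 0.369), and Atf6 (-0.24, SE 0.09, adjusted p = 0.0704) were not called, and no difference between them was tested. Of the 14 tested sensors and transcription factors other than Ern2 and Xbp1, 5 rose and Creb3l1 fell (-0.83). Creb3l3, a membrane-bound factor of liver and enterocytes that governs lipid genes, went from 7.23 ± 1.34 CPM to 99.0 ± 28.3 CPM (n = 2; 3.79, SE 0.23). Creb3 (0.96) and Creb3l2 (0.75), related membrane-bound factors, and Tmbim6 (0.46), an inhibitor of IRE1 signalling, rose as well. On the TPM scale 3 of the 14 rose. At day 7 Creb3l3 (1.61, SE 0.22) was the only one called, and Eif2ak3 was at -0.05.

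Genes of the integrated stress response, a list that holds Atf4 beside genes downstream of it, fell more often than they rose at day 4. Of 16 tested, Atf4 included, 9 fell (56.2%, beside 16.5% of all genes) and 2 rose. Atf4 itself fell by 0.48 on the log2 scale (SE 0.08), Atf5 by 1.78 (SE 0.13) and Asns, the asparagine synthetase gene, by 1.17 (SE 0.11). Ddit3, which encodes CHOP, was not called (0.24, SE 0.22, adjusted p = 0.43). Slc7a11, the cystine carrier, rose at both days (0.95 and 1.09) and Sesn2 at day 4 (0.89). At day 7, Vldlr (-1.68), Stc2 (-1.63) and Nupr1 (-0.60), the last also in the list of Paneth markers, fell, while Atf4 (-0.14), Atf5 (0.11) and Asns (-0.00) were not called. The day 7 calls of this list, that of Slc7a11 included, were lost with any 1 library of day 7 left out.

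Chaperones of other compartments were set beside those of the ER. Of 15 tested cytosolic heat shock genes 2 rose at day 4 (13.3%, beside 20.0% of all genes), Hspa1b (1.11) and Dnaja1 (0.43). Another 2 fell (13.3%, beside 16.5% of all genes), Hsp90ab1 (-0.41) and Stip1 (-0.40). Of 13 mitochondrial chaperones and proteases 6 fell (46.2%) and none rose, with Lonp1 (-0.89, SE 0.09), Hspa9 (-0.45) and Hspe1 (-0.52) the clearest. In a fit of the day 4 groups alone 3 of the 13 fell. Lonp1 (-0.45) was the only one of these called at day 7, and Hspa1b (1.02) the only cytosolic one.

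**Figure D4:**
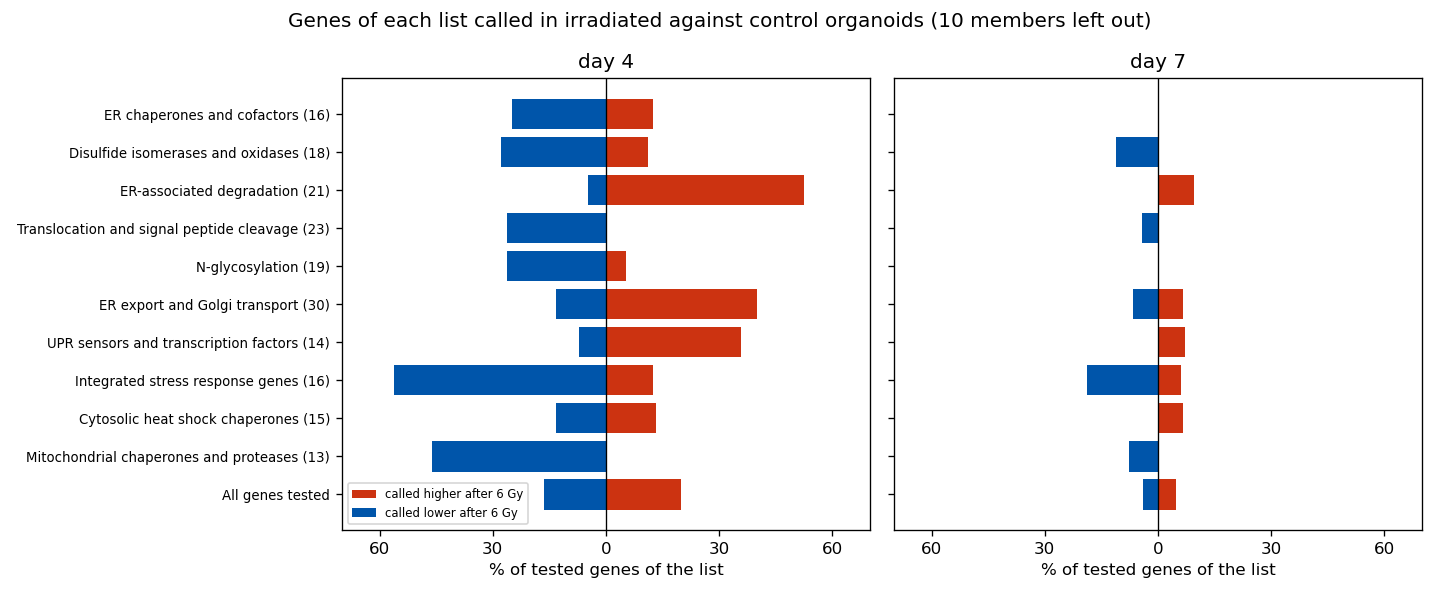
Share of the tested genes of each list (number in brackets) called higher (red, right) or lower (blue, left) in irradiated against control organoids at day 4 and day 7, with all 14063 tested genes in the bottom row. At day 4 ER-associated degradation shows 52.4% higher, and the integrated stress response 56.2% lower.

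Markers of the cell types moved with irradiation too, and in bulk RNA fewer cells of a type and less RNA per cell cannot be told apart. All 18 enterocyte markers were higher at day 4, with a summed level of 4978 to 5503 CPM in control and 17559 to 28440.1 CPM in irradiated organoids, and 7743 to 7758 CPM in irradiated organoids at day 7. Of 15 Paneth cell markers 12 were higher at day 4 and 1 lower, from 1372 to 2292 CPM in control to 4998 to 6691 CPM in irradiated organoids. Lyz1, the Paneth lysozyme, rose by 2.18 (SE 0.25). Goblet cell markers, leaving out Ern2, summed to 2497 to 3009 CPM in control and 2572 to 2745 CPM in irradiated organoids at day 4, with 5 of 15 higher and 2 lower. At day 7 they summed to 2387 to 2438 CPM and 1917 to 1982 CPM, with 3 higher and 2 lower. The mucin gene Muc2 was at -0.00 at day 4 (adjusted p = 0.992) and at -0.71 at day 7 (adjusted p = 0.106), where Ern2 was at -0.74. Other lists moved at day 4 as well. Tuft cell markers were lower in the 6 of 10 that were tested, at low levels (summed 21.8 to 22.5 CPM in control and 4.84 to 7.73 CPM in irradiated organoids). Enteroendocrine markers were higher in 6 of 14, and crypt base stem cell markers lower in 7 of 12 and higher in 2. Target genes of p53 were higher in 11 of 12, and mitosis genes lower in 19 of 20. Of all tested genes 20.0% were higher and 16.5% lower at day 4, and 4.70% and 3.95% at day 7. The part of these shifts in the levels of the 10 genes was not tested.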

How the data were processed

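Poly-A RNA was sequenced in 8 libraries, 2 in each of 4 groups, grouped by their titles. The authors deposited expected counts and TPM per gene, per the file headers. The tools named are Trim Galore, FastQC, RSEM 1.3.3, STAR 2.7.3a, with both mm10 and GRCm39 as builds and no roles given, per the submitters' processing notes. The kit marks strand, per the labels' protocols, but how strand was set in counting, and the annotation release, is not given in the sources used here. Reads of antisense partners may be mixed in. Symbols were matched to 52083 of the 55416 IDs through GENCODE M21.

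Expected counts were rounded, which changed 11.45% of the values, and filtered with edgeR's filterByExpr (minimum count 10, minimum total 15), keeping at least 99.76% of the counts of each library. The deposited totals of 7541760 to 16054300 set the precision. Genes were tested with edgeR 4.0.16 in R 4.3.3 (quasi-likelihood F-test, robust, TMM scaling, two-sided) in 1 model with 4 group means and all 8 libraries (4 residual degrees of freedom). P-values were adjusted over all 14063 genes by the Benjamini-Hochberg method. The fit was tested on simulated data, and the outcome is not given here. No error rate is drawn from that test for these libraries, whose replicate spread was unequal between the groups. Log2 CPM for likeness used a prior count of 2.

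Alternatives were DESeq2 size factors, no filter, a minimum of 5 CPM in 2 libraries, limma-voom (limma 3.58.1), DESeq2 1.42.0, limma-trend on log2(TPM + 1) or with a pseudocount of 0.1 (TPM of 1 or more in 2 libraries), only the groups compared, a replicate block, no mitochondrial genes and each library left out. Limma-voom with a weight per group was chosen after seeing the data. TPM fold changes understate low genes.

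The members, lists and tests were chosen with earlier results of these data known. The text names all members, from each ER or chaperone list up to 3 called non-members with the smallest p, and always Ern1, Atf6, Eif2ak3, Atf4, Ddit3, Agr2, Muc2 and Lyz1. Genes alike needed a mean of at least 5 CPM and a log2 span of at least 1. A gene that this rule gives is not reported here.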

Additional observations from a re-analysis of the deposited data

Results flagged for a closer look

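Of the genes named beside the members, 16 had an irradiation effect that differed between day 7 and day 4 in the interaction test of edgeR, given here as the day 7 effect less the day 4 effect on the log2 scale, where 10.1% of all tested genes did. The calls of Creb3l3, Atf5 and Asns held in all 18 alternatives, and the other 13 were lost in 4 to 9 of them, the most for Lonp1 and Prdx4. The effect was higher at day 7 for Atf5 (1.89), Asns (1.16), Prdx4 (0.84), Sil1 (0.77), Hspe1 (0.64), Stt3b (0.45), Stip1 (0.45), Lonp1 (0.44) and Hspa9 (0.43). It was lower at day 7 for Lyz1 (-2.55), Creb3l3 (-2.18), Sec24d (-0.93), Creb3l2 (-0.89), Sec23a (-0.83), Sar1b (-0.68) and Golgb1 (-0.55). The value of Golgb1 was 0.15 on the log2(TPM + 1) scale.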

How the results depend on the processing

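Of the 10 values of members called in the 5 comparisons, the alternatives gave 190 values, of which 172 were called in the same direction, 18 were not called and 0 changed sign. Of 68 called values of the genes named beside them, 25 were called in every alternative. The count of members called at day 4 (5) was 2 in a fit of only the groups compared and 3 to 7 with 1 library left out. At day 7 (1) it was 2 with no filter, 0 on log2(TPM + 1), 0 on log2(TPM + 0.1), 5 with only the groups compared, 3 in limma-voom with weights by group and 0 to 3 with 1 library left out. For the difference between days (0) it was 1 with DESeq2 size factors, 2 with no filter, 1 in DESeq2, 1 without mitochondrial genes, 1 in limma-voom with weights by group and 0 to 3 with 1 library left out. Between days in controls (0) it was 1 with no filter, 1 in limma-voom with weights by group and 0 to 1 with 1 library left out, and in irradiated organoids (4) it was 7 on both TPM scales. The cause was not tested. Libraries of the same replicate number showed no shared deviation between groups (correlation of deviations -0.04 to 0.06). That cannot tell whether they were paired by culture or animal, which is not stated. With a replicate block the counts were 6, 1, 0, 0 and 4. The values below changed sign in some alternative. In the edgeR fit of all groups and libraries none of them was called except that of Golgb1. Calls within the alternatives are not counted here. On log2(TPM + 1) and log2(TPM + 0.1), in that order, the day 4 values were -0.039 and -0.060 for Ern2, -0.054 and -0.057 for Sdf2l1, and -0.0050 and -0.0078 for Ern1. At day 7 they were 0.013 on both for Xbp1, 0.0019 on both for Hspa5, 0.038 on both for Hyou1, 0.057 and 0.060 for Dnajb9, 0.069 and 0.070 for Pdia4, and 0.0070 on both for Atf4. The differences between days were 0.29 and 0.30 for Creld2, 0.25 on both for Hspa5, and 0.15 and 0.16 for Golgb1 (-0.55 in counts). Hspa5 between days was at 0.012 on both in controls and 0.26 on both in irradiated organoids. With no filter Eif2ak3 was at 0.0045 at day 7 and the difference for Creld2 at 0.042. With a minimum of 5 CPM, Muc2 was at 0.021 at day 4, the difference for Sdf2l1 at -0.0062, and Hsp90b1 between days in irradiated organoids at -0.027. With 1 library left out the day 4 values ran from -0.31 to 0.20 for Hspa5, -0.11 to 0.41 for Ern2, -0.0064 to 0.50 for Ddit3 and -0.40 to 0.31 for Muc2. At day 7 they ran from -0.11 to 0.0077 for Hyou1, -0.26 to 0.17 for Dnajb9 and -0.17 to 0.15 for Eif2ak3, and the differences from -0.10 to 0.18 for Sdf2l1, -0.13 to 0.025 for Creld2 and -0.35 to 0.16 for Hspa5. Between days in controls they ran from -0.10 to 0.059 for Hspa5 and -0.18 to 0.24 for Dnajb9, and in irradiated organoids from -0.097 to 0.14 for Hsp90b1 and -0.38 to 0.14 for Hspa5. With 2 libraries a group, and 27 to 129 counts for Ern2, small differences of low genes were not detectable.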
